A study of Mus musculus with 8 samples.

Results

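The desmosome genes examined here are Dsg2, Dsg3, Dsc2, Dsc3, Jup, Pkp1, Pkp2, Pkp3, Dsp and Perp, chosen by name as parts of the desmosome. Each of the 10 matched a single row of the 53697 genes in the table, and all 10 passed the filter on low counts. RNA was measured in 8 libraries of mammary tumor cells from 4 mice on a C57BL/6 background that carried MMTV-PyMT, a transgene in which the mouse mammary tumor virus promoter drives polyoma middle T antigen in mammary epithelium. Mice 1 and 2 were PyMT-Dll1GFP, with GFP-IRES-Cre-ERT2 knocked in at Dll1, and mice 3 and 4 were PyMT-Dll1mCh, with mCherry on a BAC transgene. From each mouse, cells depleted of CD45, CD31 and Ter119 positive cells were sorted by their reporter into a Dll1+ and a Dll1- library, with no further treatment. The ages of these 4 mice are not given in the sources used here. Dll1 is a ligand of the Notch receptors, and the comparison of Dll1+ with Dll1- cells asked how tumor cells that express it differ from the rest of the same tumor.

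Desmosomes are patches of adhesion that fasten the keratin filaments of neighboring epithelial cells to each other. The desmogleins (Dsg) and desmocollins (Dsc) are cadherins that span the membrane and bind those of the next cell. Inside the cell, plakoglobin (Jup) and the plakophilins (Pkp) hold the cadherin tails, and desmoplakin (Dsp) links them to keratin. In simple epithelia Dsg2 and Dsc2 are the usual cadherins, while Dsg3 and Dsc3 are typical of basal cells of stratified epithelia, and Perp is a membrane protein of desmosomes that is also a target of p53 and p63.

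The 250 bases upstream of the RefSeq start of Dsp and of Jup (GRCm38.p6) are shown. These were the 2 of the 10 genes with an entry in the promoter table, and they were not picked by their results. Dsp, the anchor to keratin, differed between Dll1+ and Dll1- cells in all 4 mice, and Jup, its partner in the plaque, passed no test. With 1 gene of each kind, nothing is read from a comparison of the windows. Capitals mark matches on either strand to the Notch transcription factor motif of RBPJ (TGGGAA) and to the GC box (GGGCGG). Both windows run 5′ to 3′ on the strand of the gene, chr13:38151044-38151293 on the plus strand for Dsp and chr11:100397791-100398040 on the minus strand for Jup.
Dsp: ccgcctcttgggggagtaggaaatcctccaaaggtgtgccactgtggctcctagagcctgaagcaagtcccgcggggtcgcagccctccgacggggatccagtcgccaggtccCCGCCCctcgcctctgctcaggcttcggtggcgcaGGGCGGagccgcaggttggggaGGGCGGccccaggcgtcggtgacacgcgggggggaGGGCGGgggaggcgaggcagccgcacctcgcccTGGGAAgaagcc
Jup: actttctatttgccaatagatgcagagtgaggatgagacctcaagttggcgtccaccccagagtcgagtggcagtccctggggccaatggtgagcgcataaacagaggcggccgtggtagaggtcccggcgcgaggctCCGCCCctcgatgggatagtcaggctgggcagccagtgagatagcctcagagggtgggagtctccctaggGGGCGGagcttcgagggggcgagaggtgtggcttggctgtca
The Dsp window held 1 RBPJ match, 12 to 7 bases upstream of the start, and 4 GC boxes, while the Jup window held 2 GC boxes and no RBPJ match. Of 32851 windows of the same length in the promoter table, 21.6% held an RBPJ match and 32.7% a GC box. Neither window held the E-box that Snail and Zeb factors bind (CAGGTG, in 17.2% of windows) or the AP-1 motif (TGANTCA, in 6.75%). A match is only a run of letters, and no binding was measured here.

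Total counts per library ran from 27301396 to 123907626, so that the floor of 3 counts lay between 0.0242 and 0.11 CPM (counts scaled to a common library total), and every member exceeded it in every library. Levels below are CPM after TMM scaling, unless they are given per kilobase of exon. Dll1 itself stood at 7.61 to 50.3 CPM in the Dll1- libraries and at 87.5 to 250.2 CPM in the Dll1+ libraries, and was higher in the Dll1+ library of 4 of 4 mice. The epithelial marker Epcam lay between 899 and 1240 CPM. The libraries differed in stromal transcripts: 12 fibroblast and pericyte genes summed to between 1274 and 1489 CPM in the PyMT-Dll1GFP libraries, to 8898 and 24750 CPM in the Dll1- libraries of mice 3 and 4, and to 3809 and 3934 CPM in their Dll1+ libraries. The immune marker Ptprc (CD45) and the endothelial marker Pecam1 (CD31), both targets of the depletion, reached 12.7 and 98.2 CPM in the Dll1- library of mouse 4, against 2.88 to 4.39 and 13.7 to 14.3 CPM in the PyMT-Dll1GFP libraries. In sorted bulk cells like these, a smaller share of one cell type and less RNA per cell cannot be told apart.

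Between Dll1+ and Dll1- cells of the same mouse, the desmosome genes did not move together. Dsp and Dsc3 rose across the 4 mice, and the other 8 members did not pass the test. Of all 18322 genes tested, 6.98% were called higher and 7.04% lower in the same comparison, and with 10 members a count of 2 differs from those shares by about 1 gene, so nothing is read from the count. The members' median log2 fold change was 0.095, against -0.00068 over all genes tested.

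**Figure D1:**
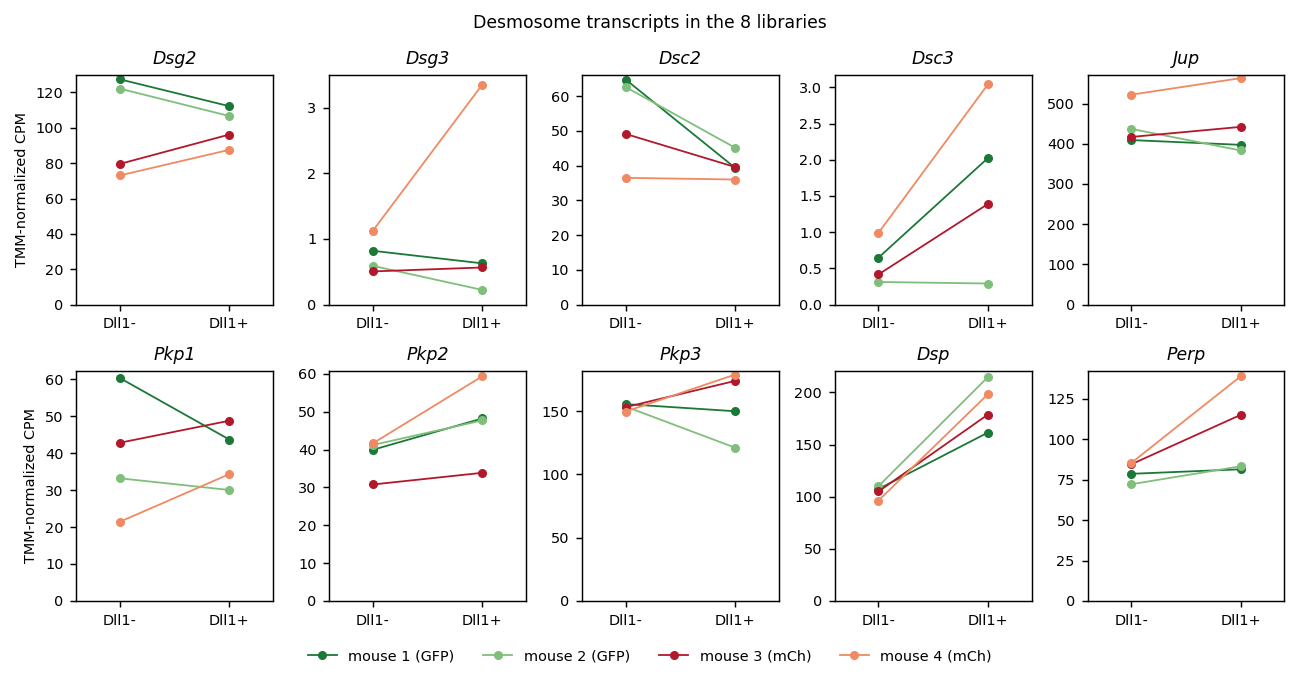
Level of each desmosome gene in the 8 libraries, in TMM-normalized CPM on an axis from 0, with a line joining the Dll1- and Dll1+ library of each mouse (green shades, PyMT-Dll1GFP; red shades, PyMT-Dll1mCh). Dsp is the member whose 4 Dll1+ libraries (161 to 215 CPM) all lie above its 4 Dll1- libraries (96.3 to 110.0 CPM), while Dsg2, Pkp1, Pkp3 and Jup slope down in the green mice and up in the red.

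Dsp encodes desmoplakin, which ties the plaque to keratin, and it was higher in the Dll1+ library of 4 of 4 mice. It stood at 107, 110.0, 105 and 96.3 CPM in the Dll1- libraries of mice 1 to 4 and at 161, 215, 179 and 198 CPM in their Dll1+ libraries. The groups did not overlap, with a mean of 105 ± 5.95 CPM in Dll1- cells and 188 ± 23.1 CPM in Dll1+ cells (SD, n = 4 each), a separation that 6.07% of all genes tested also showed in one direction or the other. Over all 4 pairs its log2 change came to 0.84 (SE 0.088), a 1.79-fold rise, with an adjusted p of 0.00671 in the quasi-likelihood test of edgeR. It was 0.78 (SE 0.12, adjusted p = 0.0160) in the PyMT-Dll1GFP mice and 0.90 (SE 0.12, adjusted p = 0.0123) in the PyMT-Dll1mCh mice. The call across the 4 mice held in all 10 alternative analyses, with a log2 fold change between 0.77 and 0.93 when each mouse was left out. Within a reporter, where 2 pairs enter, it was lost when mouse 1 or mouse 2 was left out of the PyMT-Dll1GFP comparison and when mouse 4 was left out of the PyMT-Dll1mCh one (adjusted p = 0.0811, 0.173 and 0.0508). Fitted on the 4 PyMT-Dll1mCh libraries alone, where 0 of all genes passed, the adjusted p was 0.0604. With libraries scaled to 14 epithelial genes instead, the change in the PyMT-Dll1mCh mice was 0.71 (adjusted p = 0.0192), and the part of stromal transcripts in the change was not tested further. Dsp lies on chromosome 13 at 38151294 to 38198577 (GENCODE annotation of GRCm38) and shares 499 exonic bases with Gm10129 on the opposite strand.

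The desmocollins Dsc2 and Dsc3 did not move alike: Dsc3, the basal form, rose from a very low level, and Dsc2, the abundant form, was lower in the Dll1+ library of 4 of 4 mice. Dsc3 stood at 0.648, 0.312, 0.416 and 0.991 CPM in the Dll1- libraries of mice 1 to 4 and at 2.02, 0.291, 1.39 and 3.04 CPM in the Dll1+ libraries. It was about 3 times higher in Dll1+ cells of mice 1, 3 and 4 and no higher in mouse 2, where it rested on 9 and 13 counts. On the log2 scale Dsc3 rose by 1.36 (SE 0.34, adjusted p = 0.0495) across the 4 mice and by 1.67 (SE 0.40, adjusted p = 0.0458) in the PyMT-Dll1mCh mice, and its value was 0.97 (SE 0.48, adjusted p = 0.258) in the PyMT-Dll1GFP mice. This call lies at the threshold and was lost in 5 of 9 alternatives, those without mouse 1, 3 or 4 (adjusted p = 0.157, 0.209 and 0.122), with epithelial scaling (0.0700) and without the pairing of libraries by mouse (0.219). Without mouse 2 it was 1.67 (adjusted p = 0.0328). In the PyMT-Dll1mCh mice it was lost in 7 of 10 alternatives, among them those without mouse 3 or mouse 4 (adjusted p = 0.227 and 0.218).

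Dsc2 stood at 64.7, 62.6, 49.1 and 36.5 CPM in the Dll1- libraries and at 39.4, 45.1, 39.6 and 36.0 CPM in the Dll1+ libraries of mice 1 to 4. The gap was wide in mice 1 and 2 and almost closed in mouse 4. It fell by 0.59 on the log2 scale in the PyMT-Dll1GFP mice (SE 0.11, adjusted p = 0.0252), whereas the value was -0.17 (SE 0.11, adjusted p = 0.347) in the PyMT-Dll1mCh mice and -0.38 (SE 0.12, adjusted p = 0.0806) across the 4 mice. The PyMT-Dll1GFP call was lost without mouse 1 or mouse 2 (adjusted p = 0.243 and 0.149). Across the 4 mice Dsc2 passed the test with DESeq2 (adjusted p = 0.0173), with epithelial scaling (0.0228) and without mouse 4 (0.0227).

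Neither desmoglein passed the main test between Dll1+ and Dll1- cells. Dsg2, the desmoglein of simple epithelia, stood at 127, 122, 79.6 and 73.1 CPM in the Dll1- libraries of mice 1 to 4 and at 112, 107, 96.2 and 87.6 CPM in the Dll1+ libraries. Dll1+ was therefore below Dll1- in both PyMT-Dll1GFP mice and above it in both PyMT-Dll1mCh mice. Its log2 values were 0.039 (SE 0.10, adjusted p = 0.822) across the 4 mice, -0.19 (SE 0.070, adjusted p = 0.150) in the PyMT-Dll1GFP mice and 0.27 (SE 0.070, adjusted p = 0.0588) in the PyMT-Dll1mCh mice. In the PyMT-Dll1mCh mice Dsg2 passed among genes with at least 10 counts in every library (adjusted p = 0.0469). Dsg2 shares 330 exonic bases with Gm16090, an antisense gene.

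Dsg3, the desmoglein of basal keratinocytes, was near the limit of detection, with 10 to 186 counts per library. It stood at 0.819, 0.589, 0.504 and 1.12 CPM in the Dll1- libraries of mice 1 to 4 and at 0.628, 0.224, 0.565 and 3.35 CPM in the Dll1+ libraries. The Dll1+ library of mouse 4 was the high one, and the remaining 7 overlapped. No Dll1 effect passed the test, the value across the 4 mice being 0.13 on the log2 scale (SE 0.49, adjusted p = 0.877), and without mouse 4 the value was -0.46 (adjusted p = 0.489). The 4 cadherin genes lie in one cluster on chromosome 18.

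Plakoglobin, encoded by Jup, is the catenin shared by desmosomes and adherens junctions, and its Dll1+ and Dll1- libraries overlapped. It stood at 409, 437, 417 and 522 CPM in the Dll1- libraries of mice 1 to 4 and at 397, 383, 442 and 563 CPM in the Dll1+ libraries. The log2 value was -0.0093 across the 4 mice (SE 0.077, adjusted p = 0.944), with a mean of 446 ± 51.9 CPM in Dll1- and 446 ± 81.7 CPM in Dll1+ cells (SD, n = 4 each). Jup lies on chromosome 11 at 100368958 to 100397763.

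The 3 plakophilins strengthen the link between cadherin tails and desmoplakin, and each followed its own course. Pkp2, the plakophilin of simple epithelia and heart (chromosome 16, 16213318 to 16272712), stood at 39.9, 41.2, 30.8 and 41.6 CPM in Dll1- and at 48.2, 47.7, 33.9 and 59.4 CPM in Dll1+ libraries of mice 1 to 4. It was higher in the Dll1+ library of 4 of 4 mice by a small margin, and its log2 value of 0.28 did not pass (SE 0.076, adjusted p = 0.0605). It passed with DESeq2 (adjusted p = 0.0115) and among genes with at least 10 counts in every library.

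Pkp1, the plakophilin of stratified epithelia (chromosome 1, 135871395 to 135919207), stood at 60.3, 33.2, 42.8 and 21.4 CPM in Dll1- and at 43.7, 30.0, 48.8 and 34.3 CPM in Dll1+ libraries of mice 1 to 4. Pkp3, the most abundant of the 3 (chromosome 7, 141078218 to 141090510), stood at 156, 154, 153 and 149.7 CPM in Dll1- and at 149.9, 121, 174 and 179 CPM in Dll1+ libraries. Both were lower in Dll1+ cells of mice 1 and 2 and higher in those of mice 3 and 4. Over all 4 pairs Pkp1 differed by 0.062 (SE 0.19, adjusted p = 0.843) and Pkp3 by 0.012 (SE 0.11, adjusted p = 0.949) in log2 units, and neither passed within a reporter. For Pkp1 the value was -0.31 in the PyMT-Dll1GFP mice and 0.42 in the PyMT-Dll1mCh mice (adjusted p = 0.248 and 0.114), and for Pkp3 it was -0.20 and 0.22 (adjusted p = 0.247 and 0.178). Without the filter on low counts Pkp1 did pass in the PyMT-Dll1mCh mice (adjusted p = 0.0113).

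Perp (chromosome 10, 18845020 to 18857073) stood at 78.6, 72.1, 84.5 and 85.3 CPM in the Dll1- libraries of mice 1 to 4 and at 81.4, 83.2, 115 and 139 CPM in the Dll1+ libraries. The Dll1+ library was the higher one in 4 of 4 mice, by little in mice 1 and 2 and clearly in mice 3 and 4. Perp rose 1.49-fold in the PyMT-Dll1mCh mice (log2 0.57, SE 0.091, adjusted p = 0.0180). The log2 value was 0.13 (SE 0.092, adjusted p = 0.435) in the PyMT-Dll1GFP mice and 0.35 (SE 0.11, adjusted p = 0.0908) across the 4 mice. Across the 4 mice Perp passed with DESeq2 (adjusted p = 0.0192) and without the pairing of libraries by mouse (0.0477). In the PyMT-Dll1mCh mice, where fibroblast and pericyte transcripts were lower in Dll1+ libraries, the rise with epithelial scaling was 0.38 (adjusted p = 0.0332). The call was lost without mouse 4 and on the 4 libraries of that reporter alone (adjusted p = 0.0714), where 0 of all genes passed.

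In the PyMT-Dll1GFP mice, then, Dsp rose and Dsc2 fell, against 4.29% of all genes higher and 4.84% lower. In the PyMT-Dll1mCh mice Dsp, Dsc3 and Perp rose and no member fell, against 5.51% higher and 6.25% lower. The members' median log2 fold change was -0.15 in the first and 0.37 in the second, where the medians over all genes were -0.0093 and 0.021.

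**Figure D2:**
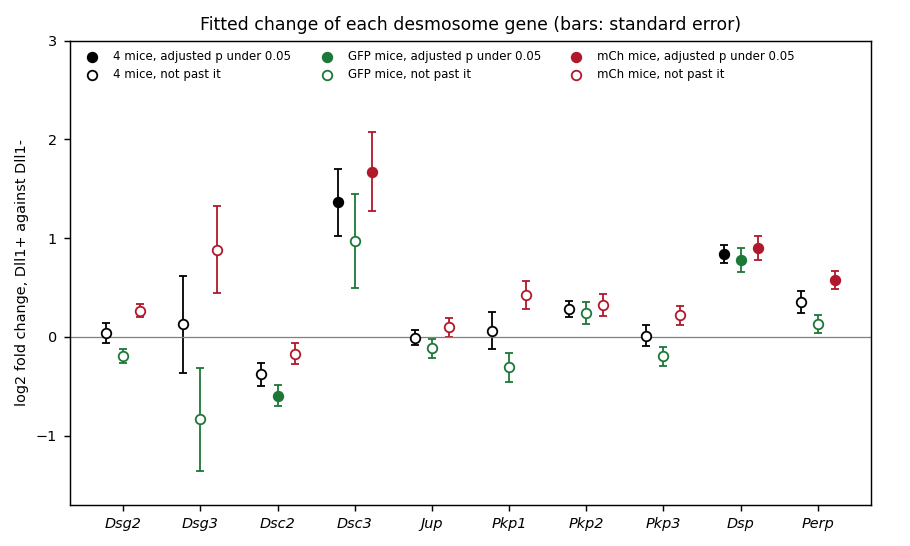
Fitted log2 fold change of Dll1+ against Dll1- cells for each desmosome gene over the 4 mice (black), the PyMT-Dll1GFP mice (green) and the PyMT-Dll1mCh mice (red), with bars of 1 standard error and filled points where the adjusted p was under 0.05. The filled points are Dsp in all 3 comparisons, Dsc3 over the 4 mice and in the PyMT-Dll1mCh mice, Dsc2 in the PyMT-Dll1GFP mice and Perp in the PyMT-Dll1mCh mice.

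The difference between the reporters in the Dll1+ effect was tested as an interaction. No member passed in edgeR, where 0.071% of all genes did, and none passed in DESeq2. At an unadjusted p under 0.05 stood 6 of the 10 members (Dsg2, Dsg3, Dsc2, Pkp1, Pkp3 and Perp), against 2420 of 18322 genes, and the fitted difference, PyMT-Dll1mCh minus PyMT-Dll1GFP, was above 0 for all 10. The share of all genes above 0 was not taken. The median difference was 0.43 for the members and 0.045 for all genes. It was 0.26 for the 14 epithelial genes used in scaling, 0.24 for tight junction, 0.11 for adherens junction and 0.70 for intermediate filament genes. The adjusted p ran from 0.150 for Dsg2 to 0.877 for Pkp2. With epithelial scaling the difference was above 0 for 7 members and 1 member was under 0.05 unadjusted. That scaling moved genes in general. The median difference was then -0.22 over all genes tested and 0.17 over the members, against 0.045 and 0.43 with TMM. Nothing is therefore read from the lower counts. From Dll1- to Dll1+ cells the stromal sums fell in mice 3 and 4 and differed by little in mice 1 and 2. Their part in the difference between reporters was not tested.

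Levels were next compared between the reporter lines within each cell group. These comparisons use the same libraries as those above, and reporter, mouse and any batch cannot be told apart in them. In Dll1- cells Dsg2 and Dsc2 were lower in the PyMT-Dll1mCh mice, 2 members where 36.6% of all genes were called. Dsg2 averaged 125 ± 3.73 CPM in the PyMT-Dll1GFP and 76.3 ± 4.61 CPM in the PyMT-Dll1mCh mice (SD, n = 2 each), which is lower by 0.71 on the log2 scale (SE 0.096, adjusted p = 0.00293). With epithelial scaling it was still lower, by 0.59 (adjusted p = 0.0180), and the call held in all 11 alternatives. Dsc2 averaged 63.7 ± 1.52 and 42.8 ± 8.93 CPM, and its call (log2 -0.57, SE 0.16, adjusted p = 0.0287) was lost with epithelial scaling (adjusted p = 0.108) and without the library of mouse 1, 2 or 4 (0.131, 0.102 and 0.108).

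In Dll1+ cells Perp and Pkp3 were higher in the PyMT-Dll1mCh mice, 2 members where 30.6% of all genes were called. Perp averaged 82.3 ± 1.32 CPM in the PyMT-Dll1GFP and 127 ± 16.8 CPM in the PyMT-Dll1mCh mice (log2 0.62, SE 0.11, adjusted p = 0.00986), a call lost without the library of mouse 1 or mouse 2 (adjusted p = 0.0657 and 0.0661). Pkp3 averaged 136 ± 20.3 and 176 ± 3.54 CPM (log2 0.38, SE 0.12, adjusted p = 0.0474), a call that was lost in 7 of 11 alternatives, including each library left out (adjusted p of 0.0508 to 0.241). The level of Dsp was close to equal in the Dll1+ cells of both lines, 188 ± 37.6 and 188 ± 13.8 CPM (log2 0.0027, SE 0.15, adjusted p = 0.991).

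Per kilobase of exon, which makes levels of different genes comparable, Jup was the most abundant member at 69.3 ± 9.85 CPM per kb (SD, n = 8). Perp followed at 47.3 ± 11.6 and Pkp3 at 42.7 ± 4.82 CPM per kb, a pair within each other's spread. Below them stood Dsp at 15.2 ± 4.90 and Dsg2 at 12.2 ± 2.39 CPM per kb, which also overlapped over all libraries. In each Dll1+ library Perp was above Pkp3 and Dsp was above Dsg2. In Dll1- libraries Perp and Dsp were below these in the PyMT-Dll1GFP mice and above them in the PyMT-Dll1mCh mice. Dsc2 (8.84 ± 2.16), Pkp2 (7.99 ± 1.68) and Pkp1 (7.82 ± 2.41 CPM per kb) did not differ beyond their spread. Dsc3 (0.211 ± 0.18) and Dsg3 (0.14 ± 0.142 CPM per kb) were far below the rest.

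**Figure D3:**
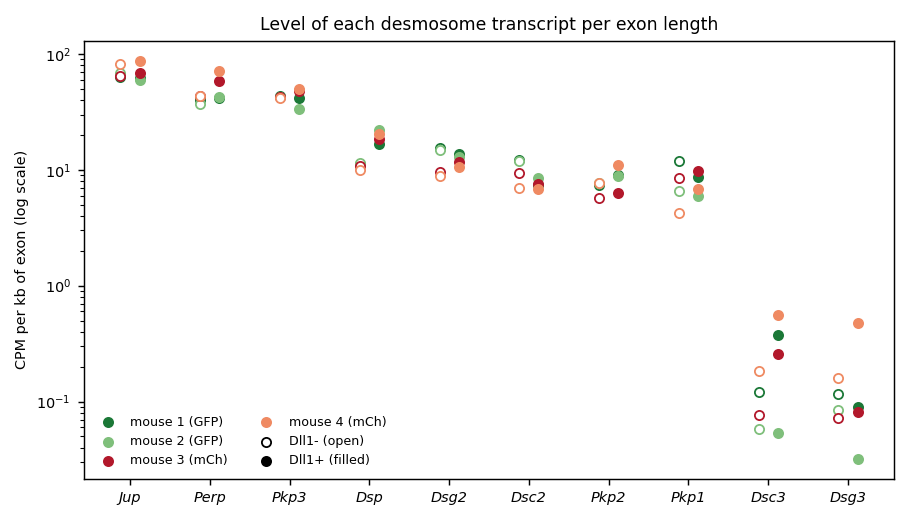
Level of each desmosome gene in CPM per kb of exon on a log axis, with members ordered by their mean over 8 libraries, open circles for Dll1- and filled circles for Dll1+ libraries, colored by mouse. Jup is at the top (59.6 to 87.5), the lowest library of the first 8 members is at 4.27, and Dsc3 and Dsg3 stay at or below 0.563 in every library.

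Shares within families were taken from the same length-scaled levels. The cadherins of simple epithelia made up nearly all of their families, with Dsg3 at 0.248% to 4.33% of the level of Dsg2 and Dsg3 together and Dsc3 at 0.484% to 7.62% of that of Dsc2 and Dsc3. Among the plakophilins Pkp3 held 68.9% to 77.5%, Pkp2 9.86% to 18.4% and Pkp1 7.99% to 19.2% of the summed level. The log2 ratio of Dsc3 to Dsc2 counts, which needs no scaling between libraries, was higher in Dll1+ than in Dll1- cells by 2.33, 0.35, 2.04 and 1.62 in mice 1 to 4. The ratio was higher in Dll1+ cells of 4 of 4 mice, on average by 1.59 ± 0.88 (SD, n = 4 mice), with a two-sided exact sign-flip permutation p of 0.125, the smallest that 4 pairs allow, and 0.5 after adjustment over 4 ratios. In mouse 2 Dsc3 itself did not rise (0.312 CPM in Dll1- and 0.291 CPM in Dll1+ cells), while Dsc2 went from 62.6 to 45.1 CPM. The ratio of Dsg3 to Dsg2 changed by -0.042 ± 1.02 (higher in 1 of 4 mice, exact p = 0.875), that of Pkp1 to Pkp2 by -0.22 ± 0.41 (2 of 4 mice, exact p = 0.5) and that of Pkp1 to Pkp3 by 0.053 ± 0.35 (3 of 4 mice, exact p = 0.625).

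**Figure D4:**
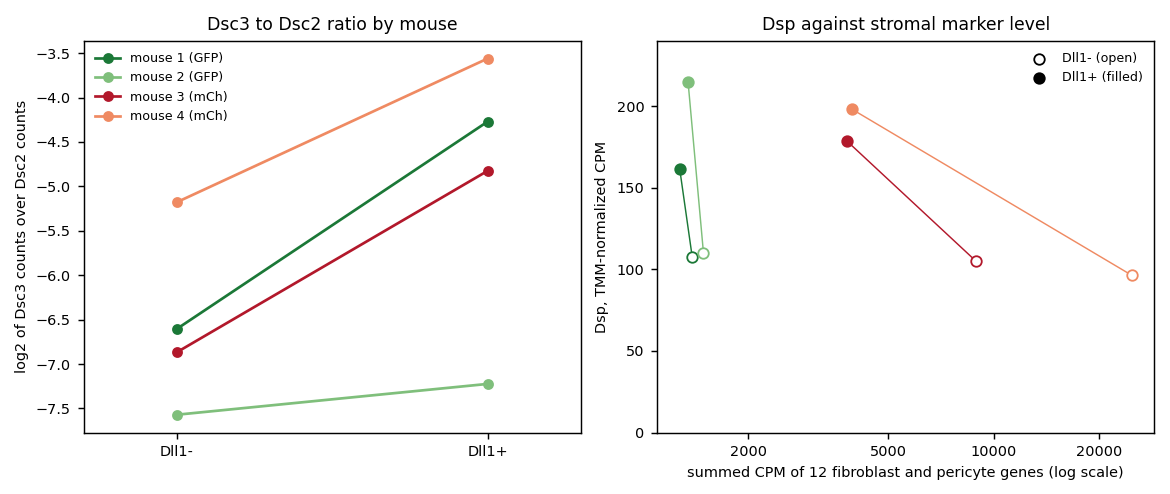
Left, log2 ratio of Dsc3 to Dsc2 counts (0.5 added to each) in the Dll1- and Dll1+ library of each mouse, where all 4 lines rise. Right, Dsp in TMM-normalized CPM against the summed CPM of 12 fibroblast and pericyte genes on a log axis, where Dsp is higher in the filled Dll1+ circle of each mouse. The stromal sums differ little within each green mouse and widely within each red one, and their part in the change was not tested.

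Genes with the most similar course were sought for the 4 members that ranged over at least 1 log2 unit across the 8 libraries, as the root mean square difference of centered log2 CPM. Nearest to Dsc3 were Arc, an immediate early gene (0.488), Krt14, the basal keratin (0.571), and Tex15 (0.589). Krt14 stood at 82.2, 59.5, 36.5 and 149.3 CPM in Dll1- and at 173, 97.7, 247 and 479 CPM in Dll1+ libraries of mice 1 to 4. Arc, Krt14 and Tex15 were each, like Dsc3, lowest among Dll1+ libraries in mouse 2. Since they were picked for a course like that of Dsc3, nothing is read from this. Nearest to Dsp were Proca1 (0.144), Snx21, a sorting nexin (0.151), and Nme5 (0.151), nearest to Pkp1 were Cd1d1 (0.184), Tmem265 (0.194) and Hapln3 (0.208), and near to Dsg3 were the pseudogene Rpl9-ps4 (0.431) and Gprc5a (0.446). Among the members themselves, Jup and Pkp3 were the closest pair (0.151) and the main cadherins Dsg2 and Dsc2 were 0.239 apart.

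Of 11 other genes of desmosomes and cornified junctions, 6 were expressed enough to test, and 1 of them passed across the 4 mice. This was Dsg1c, which fell by 1.18 on the log2 scale (SE 0.20, adjusted p = 0.0187). Its level was 1.12 to 2.17 CPM in Dll1- and 0.45 to 0.992 CPM in Dll1+ libraries, and since Dsg1a, Dsg1b and Dsg1c are close copies the split of reads between them is uncertain. Kazn, the desmosome-associated kazrin, was 0.23 (adjusted p = 0.0643) and the plakophilin relative Pkp4 -0.14 (adjusted p = 0.292). The plakins Evpl and Ppl, relatives of desmoplakin, averaged 31.0 and 60.4 CPM in Dll1- and 29.2 and 61.9 CPM in Dll1+ cells.

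Desmoplakin's partners are the keratins, and 2 of 13 tested intermediate filament genes rose across the 4 mice while none fell, against 6.98% higher and 7.04% lower over all genes, so the count differs from those shares by about 1 gene. Krt5, the partner of Krt14 in basal cells, stood at 13.2, 6.17, 20.9 and 30.8 CPM in Dll1- and at 70.1, 27.9, 243 and 219 CPM in Dll1+ libraries, and rose by 2.77 on the log2 scale (SE 0.25, adjusted p = 0.00730). Krt23 rose by 0.58 (adjusted p = 0.00771). Krt14 was 1.55 (adjusted p = 0.0533), and Krt8, the keratin of luminal cells, was 0.31 (adjusted p = 0.0638).

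Some genes of the adherens and tight junctions passed the test, to be set beside the same 6.98% higher and 7.04% lower over all genes. Of 17 tested adherens junction genes 3 rose and 1 fell, the rises being in delta-catenin Ctnnd2 (0.74, adjusted p = 0.0158) and the nectins Nectin1 (0.46, adjusted p = 0.0226) and Nectin2 (0.24, adjusted p = 0.0393), and the fall in Limd1 (-0.22, adjusted p = 0.0384). E-cadherin (Cdh1) averaged 539 ± 100.8 CPM in Dll1- and 494 ± 26.6 CPM in Dll1+ cells (SD, n = 4 each) and did not pass (adjusted p = 0.555). Of 25 tight junction genes 5 rose and 2 fell. Cldn6, a claudin of embryonic epithelium, fell by 2.59 (adjusted p = 0.0107), and Cgnl1, Cldn1 and Cldn2 rose by 0.43, 0.50 and 0.56 (adjusted p = 0.0158, 0.0171 and 0.0176).

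Of 19 transcription factors known to act on epithelial junction genes, 4 rose across the 4 mice and none fell, where 6.98% of all genes rose and 7.04% fell. Trp63, which encodes p63, the basal epithelial factor with Perp among its targets, stood at 30.2, 30.7, 7.94 and 12.5 CPM in Dll1- and at 52.9, 40.3, 27.3 and 32.1 CPM in Dll1+ libraries of mice 1 to 4, a log2 change of 1.08 (SE 0.24, adjusted p = 0.0461). Its relative Trp73 rose by 2.77 (adjusted p = 0.00825) from under 0.25 CPM, and Klf5 and Tfap2c rose by 0.52 and 0.35 (adjusted p = 0.0182 and 0.0481). Within the reporters the log2 change of Trp63 was 0.60 (adjusted p = 0.0603) in the PyMT-Dll1GFP mice and 1.58 (adjusted p = 0.00846) in the PyMT-Dll1mCh mice. Between the lines Trp63 lay higher in the PyMT-Dll1GFP mice in both cell groups, and Perp lay lower there in Dll1+ cells. A link between Trp63 and Perp was not tested.

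Counts of markers of other cell types stand beside the same shares over all genes (6.98% higher, 7.04% lower). Of 12 basal and myoepithelial markers 5 rose across the 4 mice and none fell, and their summed level was 363 to 913 CPM in Dll1- and 387 to 1816 CPM in Dll1+ libraries, the lowest Dll1+ sum being that of mouse 2. Of 14 luminal markers 3 rose and 4 fell, with sums of 10225 to 13741 CPM in Dll1- and 16596 to 20414 CPM in Dll1+ libraries. Csn3 alone averaged 6008 CPM in Dll1- and 10813 CPM in Dll1+ cells, so the sums do not stand for the markers as a set. The rises were in Kit, Cd14 and Csn3 (log2 0.81, 0.70 and 0.85), and Foxa1 was among the falls (-1.88). Of 16 keratinocyte markers 5 could be tested, of which Krt1 rose and Sprr1a and Sprr2a3 (one of a family of close copies) fell, with sums of 51.5 to 74.8 CPM in Dll1- and 20.7 to 78.8 CPM in Dll1+ libraries, and Lce1a1 was at 0 in every library. None of 12 fibroblast and pericyte, 10 endothelial and 9 tested immune markers passed across the 4 mice, where the medians were -1.24, -0.71 and -0.59 on the log2 scale. In the PyMT-Dll1mCh mice 6, 5 and 7 of them fell, where 6.25% of all genes were called lower. Endothelial sums were 72.7 to 585 CPM in Dll1- and 72.4 to 146 CPM in Dll1+ libraries, and immune sums 66.8 to 395 and 75.3 to 179 CPM. The part of basal cells in the Dsc3 result was not tested.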

How the data were processed

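RNA from sorted tumor cells was sequenced with a stranded TruSeq kit. The authors mapped reads with salmon to GENCODE M20 transcripts (GRCm38.p6), used tximport to sum transcripts per gene, and deposited the estimated counts unnormalized as whole numbers. Versions and the strand setting are not given in the sources used here, so reads of a gene and of one overlapping it on the other strand may be mixed. The table held no columns beyond the 8 libraries.

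Groups, reporter and mouse came from the labels. The 10 genes, the other lists and the tests were chosen with earlier results of these data known. Genes were filtered with filterByExpr and scaled by TMM, and edgeR 4.0.16 (R 4.3.3) fitted quasi-likelihood models with mouse as a block, as the study's own model had, for Dll1 status over 4 mice, within each reporter and for their difference. Reporters were compared within a cell group without that block, because each mouse had 1 reporter. Benjamini-Hochberg adjustment ran over all 18322 genes, with a threshold of 0.05. Libraries were paired by mouse, since both came from one animal. Deviations of same-mouse libraries correlated at -0.047 in PyMT-Dll1GFP and 0.55 in PyMT-Dll1mCh mice. Ratios within families used counts plus 0.5 and an exact two-sided sign-flip permutation test over 4 mice. Alternatives were RLE size factors, scaling to 14 epithelial genes, DESeq2 1.42.0, no filter, at least 10 counts in every library, no block, only the libraries compared, each mouse left out and, for ratios, 5 added counts. The fitting code was tested on simulated counts with 200 changed genes. CPM per kb used exon lengths of the GENCODE annotation of GRCm38. Upstream sequences came from RefSeq.

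Named were the 10 members, up to 4 genes with the lowest p across the 4 mice in each list, Dll1, Ptprc, Pecam1 and Epcam, and the 3 tested genes (mean CPM of at least 1) closest in course to each member with a range of at least 1 log2 unit. Krt14 was given beside Dsc3 on that rule, and Cdh1, Evpl and Ppl were added after their values were seen. One gene that this rule names is not reported here.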

Additional observations from a re-analysis of the deposited data

Results flagged for a closer look

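The log2 difference of Dsc3 between the Dll1+ and Dll1- libraries was -0.090 in mouse 2 and 1.58, 1.65 and 1.58 in mice 1, 3 and 4, so mouse 2 stood far from the other 3 for the spread of the group. Pkp2 at 30.8 CPM in the Dll1- library of mouse 3 stood apart from the other 3 Dll1- libraries (39.9 to 41.6 CPM) in the same way. Chance alone marks about 1 in 20 groups of values like this.

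For 5 members (Dsg2, Dsg3, Jup, Pkp1 and Pkp3) all mice of one reporter moved one way and all mice of the other reporter the opposite way. The share of all genes with this pattern was not taken, so nothing is read from the count. The fitted difference of the Dll1+ effect, PyMT-Dll1mCh minus PyMT-Dll1GFP on the log2 scale, was 0.46 for Dsg2 (adjusted p = 0.150), 1.72 for Dsg3 (adjusted p = 0.360), 0.21 for Jup (adjusted p = 0.568), 0.73 for Pkp1 (adjusted p = 0.243) and 0.42 for Pkp3 (adjusted p = 0.275). None of these passed the edgeR test across all genes. Summed fibroblast and pericyte markers went from 8898 to 3809 CPM in mouse 3 and from 24750 to 3934 CPM in mouse 4. They went from 1383 to 1274 CPM in mouse 1 and from 1489 to 1346 CPM in mouse 2, and their part in these differences was not tested. With epithelial scaling the difference was 0.19 for Dsg2 (adjusted p = 0.446), where the median over all genes was -0.22.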

How the results depend on the processing

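Dsp across the 4 mice and Dsg2 between reporters in Dll1- cells kept their calls in every alternative tried for them. All calls between Dll1+ and Dll1- cells, that of Dsp included, rest on 2 or 4 pairs. All calls between reporters, that of Dsg2 included, compare 2 unpaired libraries with 2. With scaling to epithelial genes the median log2 value of all genes was -0.17 in the PyMT-Dll1mCh comparison (0.021 with TMM), -0.22 in the difference between reporters (0.045 with TMM), 0.12 between reporters in Dll1- cells (0.010 with TMM) and -0.083 in Dll1+ cells (0.066 with TMM). With it, calls of all genes split into 501 higher and 1179 lower across the 4 mice (1279 and 1289 with TMM), 320 and 2257 in the PyMT-Dll1mCh mice (1009 and 1145), 3668 and 2282 between reporters in Dll1- cells (3422 and 3279) and 1466 and 3311 in Dll1+ cells (2786 and 2826).

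Across the 4 mice 2 members were called, 5 with DESeq2 and 1 to 2 with a mouse left out. In the PyMT-Dll1GFP mice 2 were called, 0 without the replicate block on mouse and 0 to 2 with a mouse left out. In the PyMT-Dll1mCh mice 3 were called, 1 without the replicate block, 0 on the 4 libraries of that reporter alone and 0 to 3 with a mouse left out. For the difference between reporters 0 were called, 1 (Pkp1) without the filter and 0 to 1 with a mouse left out. Between reporters in Dll1- cells 2 were called, 1 with epithelial scaling, 1 on the libraries of that status alone and 1 to 2 with a library left out. In Dll1+ cells 2 were called, 1 with RLE factors, 1 with epithelial scaling, 1 on the libraries of that status alone and 0 to 2 with a library left out. A block on the shared replicate number gave 3 and 2 members there. Taking out the replicate block ended the calls of Dsp and Dsc2 in the PyMT-Dll1GFP mice, of Dsc3 and Perp in the PyMT-Dll1mCh mice and of Dsc3 across the 4 mice, brought in Perp across the 4 mice and changed no other call of a member. Calls over all genes moved as well. Across the 4 mice 2568 genes were called, 4362 with DESeq2 and 405 to 2400 with a mouse left out. In the PyMT-Dll1GFP mice 1673 genes were called, and 274 without the replicate block. In the PyMT-Dll1mCh mice 2154 genes were called, 212 without that block and 0 on the 4 libraries of that reporter alone.

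Directions turned in the following cases, and the cause was not tested. Across the 4 mice, epithelial scaling gave -0.023 for Dsg2 and -0.051 for Pkp3, and leaving out a mouse gave -0.040 to 0.12 for Dsg2, -0.46 to 0.53 for Dsg3, -0.052 to 0.054 for Jup, -0.14 to 0.24 for Pkp1 and -0.072 to 0.13 for Pkp3. In the PyMT-Dll1GFP mice Dsc3 ran from -0.095 to 1.64, with the lowest value without mouse 1. In the PyMT-Dll1mCh mice Jup was -0.099 with epithelial scaling. For the difference between reporters, epithelial scaling gave -0.14 for Dsp, -0.054 for Jup and -0.18 for Pkp2, and leaving out a mouse gave -0.065 to 0.32 for Dsp and -0.14 to 0.24 for Pkp2. Between reporters in Dll1- cells Pkp3 was 0.083 with epithelial scaling, 0.017 without the filter and -0.061 to 0.033 with a library left out. The change of the Dsg3 to Dsg2 ratio was 0.0024 with 5 added counts and -0.49 to 0.33 with a mouse left out, and that of Pkp1 to Pkp3 -0.070 to 0.21. Fits that leave 1 pair in a reporter assume that it varies like the other reporter's pairs. Dsc3 could not be tested among genes with at least 10 counts in every library.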
